A study of Homo sapiens with 6 samples.

Results

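The genes described here are 10 core genes of the Notch pathway. They are the 4 receptors NOTCH1, NOTCH2, NOTCH3 and NOTCH4, the ligands JAG1 and JAG2, the nuclear proteins RBPJ and MAML1, and the targets HES1 and HEY1. They were taken by gene symbol from the 60607 genes of the deposited tables, and 9 of the 10 had enough counts to be fitted among 17109 genes. HEY1 did not. The cells were PLC/PRF/5, an established human hepatocellular carcinoma line. One group received siRNAs against SLU7, a factor of the second step of pre-mRNA splicing, and the other group the unrelated siRNA siGL2. Both groups share the line and the transfection, and RNA was taken at 48 h, with 3 libraries in each group. The labels call the libraries triplicates and say no more. What spread the p-values rest on is that among these 6 libraries, and it may be technical.

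Notch receptors are single-pass membrane proteins that are switched on by a Jagged or Delta-like ligand on a neighbouring cell. Binding lets ADAM10 and then gamma-secretase cut the receptor, and the freed intracellular domain enters the nucleus, where it joins the DNA-binding protein RBPJ and a Mastermind coactivator such as MAML1 to switch on HES and HEY genes, which encode transcriptional repressors. In the liver the pathway is known for directing progenitor cells to the bile duct fate, and it is studied in liver cancer.

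The first sequence shown is an intron kept in HES1-202, the retained-intron transcript of HES1. It is shown because HES1-202 and the coding HES1-201 had log2 fold changes of opposite sign. It is intron 2 of 3 of HES1, lies between coding exons at chr3:194136713-194136960 on the plus strand (GRCh38), and is 248 bases long. The second is the last intron, 29 of 29, of NOTCH4, kept in the transcript NOTCH4-205, at chr6:32196151-32196323 on the minus strand, 173 bases long. It is shown because all NOTCH4 counts fell on retained-intron transcripts. Capitals mark the first 6 bases, which hold the 5′ splice site, and the last 20 bases, which hold the 3′ splice site with its pyrimidine-rich stretch, both read from the GENCODE 29 transcripts.
HES1 intron 2: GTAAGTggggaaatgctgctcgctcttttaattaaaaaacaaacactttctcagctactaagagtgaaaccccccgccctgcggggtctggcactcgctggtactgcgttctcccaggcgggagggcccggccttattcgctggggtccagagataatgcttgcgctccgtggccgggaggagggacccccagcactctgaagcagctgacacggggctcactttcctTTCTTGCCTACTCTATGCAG
NOTCH4 intron 29: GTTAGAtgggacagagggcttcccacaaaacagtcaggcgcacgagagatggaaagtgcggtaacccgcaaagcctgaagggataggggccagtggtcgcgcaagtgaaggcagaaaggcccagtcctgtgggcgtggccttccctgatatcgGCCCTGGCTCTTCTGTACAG
Both introns begin with GT and end with AG. Of the 20 bases before the closing 3, 16 are pyrimidines in the HES1 intron and 14 in the NOTCH4 intron.

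The promoter of HES1 is shown because it is where RBPJ meets this target. These are the 250 bases before the RefSeq start (GRCh38.p14, chr3:194135898-194136147, plus strand), with capitals on the motif TGGGAA, the core letters of an RBPJ site, searched on both strands.
HES1 promoter: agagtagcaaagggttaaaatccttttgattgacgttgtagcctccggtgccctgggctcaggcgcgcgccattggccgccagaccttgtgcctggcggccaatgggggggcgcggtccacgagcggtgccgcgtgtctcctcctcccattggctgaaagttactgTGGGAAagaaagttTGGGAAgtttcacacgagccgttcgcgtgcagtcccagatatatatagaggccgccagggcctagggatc
The motif starts 84 and 70 bases upstream of the start. It stands in 24.0% of 35116 RefSeq promoter windows of 300 bases (250 before and 50 after the start), and at least 2 copies stand in 3.8%. Promoters were found for 9 of the 10 genes. None was found for HEY1, so the motif was not searched there. Besides HES1, 1 of the 5 RBPJ promoters held the motif, also with 2 copies. The promoters found for the other genes held none.

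The libraries held 5191452 to 8693977 estimated counts, every control more than every knockdown. In CPM, the counts of a gene scaled to the size of the library, SLU7 itself stood at 20.9, 17.1 and 18.4 in control replicates 1 to 3 and at 9.38, 8.29 and 10.5 in the knockdowns. The siRNA target was thus lower in every knockdown library than in any control. Mitochondrial ribosomal RNA took 16.8% to 24.1% of counts in the controls and 29.9% to 35.3% in the knockdowns. 7SL RNA took 15.4% to 22.8% and 7.95% to 10.5%. Values are also given without the first control and the third knockdown library (control replicate 1, knockdown replicate 3), a pair chosen after seeing the data. By mitochondrial ribosomal RNA and 7SL RNA, other libraries lay farthest from the rest of their groups. These were control replicate 2 (16.8% and 22.8%) and knockdown replicate 1 (35.3% and 7.95%). The part of the group differences in these RNAs in the Notch values was not tested.

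Because the genes were picked with this contrast known, their fold changes are given as a description without p-values. By edgeR's adjusted p under 0.05 over all genes, 4 of the 9 fitted genes were called lower (NOTCH1, NOTCH2, NOTCH3 and JAG2) and 1 higher (MAML1), where 13.9% of all genes were called, 7.93% lower and 5.93% higher. NOTCH4, JAG1, RBPJ and HES1 were not called. The CPM values of the groups did not overlap for 8 of the 9 (6 lower, 2 higher, HES1 overlapping), and for 36.4% of all genes. JAG2 had counts of 10 or more in the controls only, so its passing the filter and its being lower go together. Leaving out 1 library changed this count, from 5 called genes to 0 without knockdown replicate 2, 1 (NOTCH3) without knockdown replicate 1, 2 (NOTCH1 and NOTCH3) without control replicate 2, and 3 (NOTCH1, NOTCH3 and JAG2) without control replicate 3 or without knockdown replicate 3. Without control replicate 1, 6 genes were called, JAG1 added. Without both control replicate 1 and knockdown replicate 3, the same 6 were called, where 29.8% of all genes were.

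**Figure D1:**
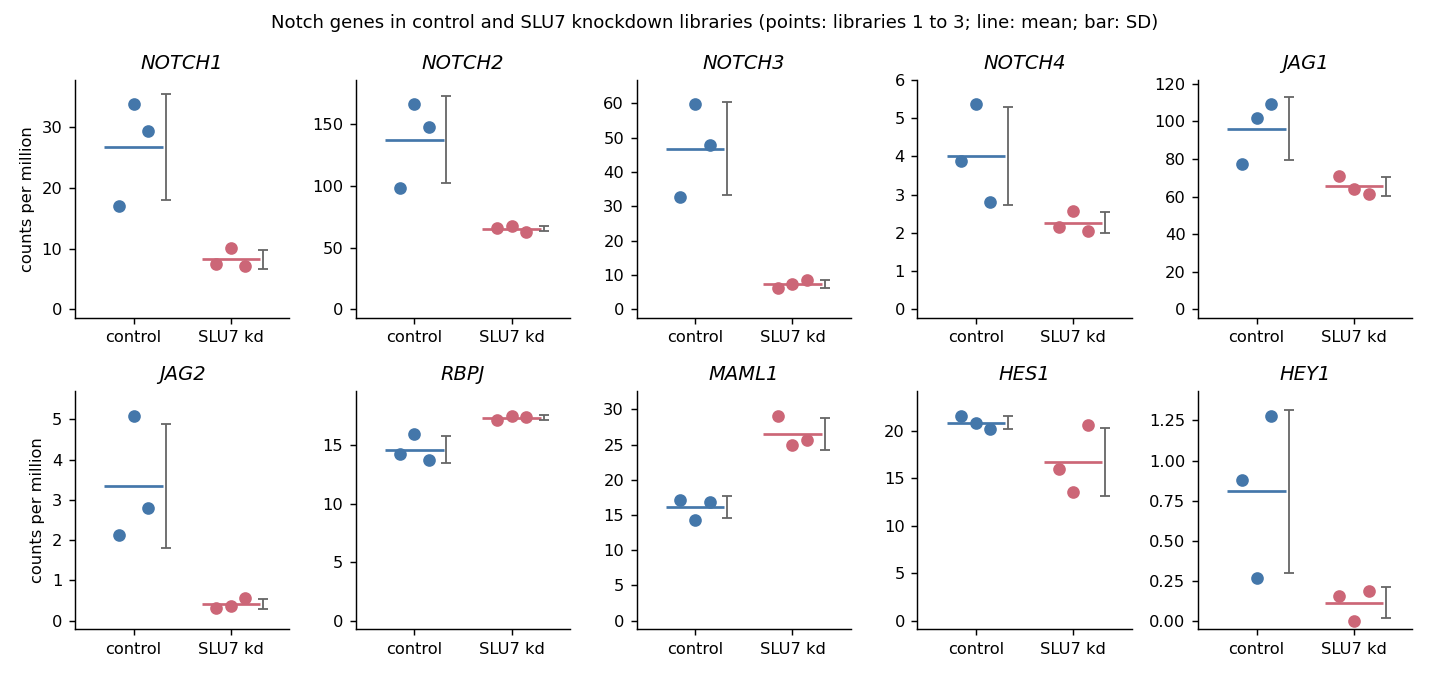
CPM of the 10 Notch genes in each library (points), with the group mean (line) and SD (bar), each panel on its own linear axis from 0. Control and SLU7 knockdown points are apart for all 4 receptors and both ligands, and NOTCH3 stands at 32.8 to 59.7 in the controls and 6.31 to 8.59 in the knockdowns.

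NOTCH3 had the largest fold difference of the 4 receptors between the groups, while NOTCH2 had the larger difference in CPM. The gene (ENSG00000074181.9, chromosome 19, 15159038 to 15200981, minus strand, GRCh38) encodes a receptor best known from vascular smooth muscle. Its level was 32.8, 59.7 and 47.8 CPM in control replicates 1 to 3 and 6.31, 7.37 and 8.59 CPM in the knockdowns. The highest knockdown value lay far below the lowest control value. The means were 46.8 ± 13.5 and 7.42 ± 1.15 CPM (SD, n = 3 each), 6.31-fold lower in the knockdown, a log2 fold change of -2.66 (SE 0.26). Without control replicate 1 and knockdown replicate 3 it was -2.97. In bulk RNA, fewer cells that make a transcript and less of it per cell cannot be told apart.

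All 3 coding NOTCH3 transcripts with at least 5 estimated counts on average were lower. The full-length NOTCH3-201 held 112.7, 260.1 and 192.7 estimated counts in the controls against 26.9, 11.6 and 11.6 in the knockdowns. NOTCH3-206, a transcript of 23 exons that covers the 5′ part of the gene (15177911 to 15200902), held 121.9, 149.3 and 139.8 counts and then 7.3, 19.9 and 26.2. NOTCH3-204, a short transcript of 3 exons, held 18.8, 26.5 and 38 counts in the controls, 3.2 in knockdown replicate 1 and 0 in the other two. The lower level was thus seen on transcripts from the 5′ part, the 3′ part and the whole of the gene.

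NOTCH1 (ENSG00000148400.13, chromosome 9, 136494433 to 136545786, minus strand), a receptor with roles in blood, vessels and many epithelia, was also lower in every knockdown library. It stood at 17.0, 33.8 and 29.4 CPM in the controls and at 7.54, 10.1 and 7.1 CPM in the knockdowns. Control replicate 1, one of the pair also left out, was the lowest control. The means were 26.7 ± 8.71 and 8.26 ± 1.64 CPM, a log2 fold change of -1.69 (SE 0.28). Its counts were not stably placed on transcripts: the decay-marked transcript NOTCH1-213 held 113.0 counts in control replicate 1 and at most a trace elsewhere, and NOTCH1-205 held 64.0 in control replicate 2 only. The coding transcript NOTCH1-209 held 21.4, 182.9 and 222.3 counts in the controls against 35.8, 45.2 and 0 in the knockdowns. Single NOTCH1 transcripts are therefore given as the estimator's split and the gene total is the firmer value.

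NOTCH2 (ENSG00000134250.20, chromosome 1, 119911553 to 120069626, minus strand), the receptor most tied to bile duct formation, carried the most counts of the 4. It stood at 98.5, 166 and 148 CPM in the controls and at 65.7, 67.5 and 63.0 CPM in the knockdowns. The knockdown libraries lay close together and below every control. The means were 137 ± 34.8 and 65.4 ± 2.26 CPM, a log2 fold change of -1.07 (SE 0.20). The full-length NOTCH2-201 held 727.2, 1145.4 and 1064.5 counts in the controls against 357.6, 296.6 and 273.6 in the knockdowns. The shorter coding NOTCH2-207 held 14.0, 24.3 and 29 counts and then 15.1, 23.7 and 16.8, with overlap. The share of NOTCH2-201 in the gene's counts went from 92.4% ± 0.501 to 82.0% ± 1.54. NOTCH2 has near-identical partial copies, and reads may be split among them: NOTCH2NLA stood at 7.76 ± 0.961 and 7.85 ± 1.06 CPM, NOTCH2NLC at 5.43 ± 0.795 and 3.99 ± 1.08.

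NOTCH4 (ENSG00000204301.6, chromosome 6, 32194843 to 32224067, minus strand), a receptor known from endothelium, was near the lower end of what these libraries measure. It stood at 3.89, 5.36 and 2.81 CPM in the controls and at 2.15, 2.58 and 2.06 CPM in the knockdowns, without overlap, a log2 fold change of -0.82 (SE 0.34). All of its counts were assigned to retained-intron transcripts in every library. NOTCH4-204 held 12.2, 17.9 and 14.1 counts in the controls against 9.2, 10.5 and 6.6 in the knockdowns, whose libraries held fewer counts. As CPM of each library's total count, NOTCH4-204 stood at 1.4, 2.3 and 1.82 in the controls. In the knockdowns it stood at 1.46, 2.02 and 1.23, with overlap (log2 fold change -0.39, SE 0.47). NOTCH4-205, which keeps the intron shown above, held 10.2, 17.1 and 6.9 counts in the controls, 2.3 in knockdown replicate 1 and 0 in the other two. The 3′ end of NOTCH4 overlaps GPSM3 on the same strand, which stood at 0 to 0.767 CPM.

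In TPM, a level scaled to transcript length and library, the makeup of the receptors differed between the groups. NOTCH3 made up 38.5%, 35.7% and 43.2% of the summed TPM of the 4 receptors in the controls against 15.6%, 18.8% and 18.7% in the knockdowns. NOTCH2 went from 51.2% ± 3.42 to 71.2% ± 4.75, NOTCH1 from 6.15% ± 0.986 to 8.52% ± 3.51 and NOTCH4 from 3.45% ± 1.13 to 2.64% ± 0.557 (SD, n = 3 each). The NOTCH3 share was thus 39.1% ± 3.79 against 17.7% ± 1.82, a difference of -21.4 percentage points. By estimated counts, which weigh long transcripts more, it was 21.7% ± 0.808 against 8.91% ± 1.5, a difference of -12.8 points. A share within the 4 receptors does not depend on the library total. The TPM shares lean on short transcripts with few counts. NOTCH3-204 (559 bases) gave 2.58, 3.02 and 5.5 of the 6.21, 7.58 and 9.75 TPM of NOTCH3 in the controls. The full-length NOTCH3-201 gave 0.755, 1.5 and 1.43 TPM there. NOTCH2-202 (520 bases) gave 4.14, 2.41 and 3.07 of the 8.38, 11.5 and 10.7 TPM of NOTCH2 in the controls.

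**Figure D2:**
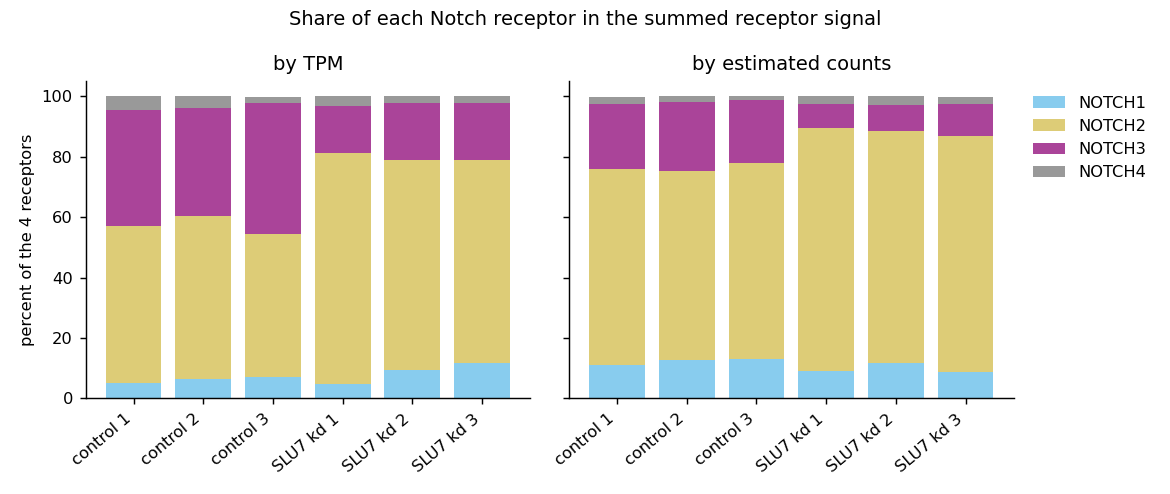
Stacked bars give the percent of each receptor in the summed signal of the 4 receptors per library, by TPM (left) and by estimated counts (right). By TPM the NOTCH3 segment spans 35.7% to 43.2% in the controls and 15.6% to 18.8% in the knockdowns, and NOTCH2 fills most of the rest.

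Of the ligands, JAG1 (ENSG00000101384.12, chromosome 20, 10637684 to 10673999, minus strand), the Jagged ligand required for bile duct formation, was the abundant one. It stood at 77.4, 102 and 109 CPM in the controls and at 71.1, 63.8 and 61.3 CPM in the knockdowns. The groups did not overlap, although control replicate 1 and knockdown replicate 1 were close. The log2 fold change was -0.55 (SE 0.17). The full-length coding JAG1-201 held 430.3, 429.4 and 502.3 counts in the controls against 243.4, 175.5 and 186.1 in the knockdowns (log2 fold change -0.87, SE 0.19). The short retained-intron JAG1-204 held 10.5, 13.5 and 32.2 counts in the controls against 39.9, 19.8 and 18.4 in the knockdowns, a log2 fold change of 0.76 (SE 0.56). The noncoding JAG1-202 (-0.79, SE 0.33) and the retained-intron JAG1-207 (0.55, SE 0.79) differed in sign in the same way. Counts on the coding transcript were thus lower without overlap, while those on the 2 retained-intron transcripts overlapped.

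JAG2 (ENSG00000184916.9, chromosome 14, 105140981 to 105168824, minus strand), the other Jagged ligand, was scarce. It had 17, 38 and 22 counts in the controls against 2, 2 and 3 in the knockdowns. Per total count, the summed 77 control counts against 7 knockdown counts give a ratio of 7.67 (95% exact binomial interval 3.55 to 19.7, counting error only). The interval leaves out the spread between libraries. It is no test, since JAG2 was picked with this contrast known. The fitted log2 fold change of -2.98 (SE 0.54) rests on those few counts. Most of the control counts were on the coding JAG2-201, which held 17.0, 27.7 and 17.8 counts in the controls against 2.2, 2.0 and 0 in the knockdowns.

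Of the nuclear complex, MAML1 (ENSG00000161021.13, chromosome 5, 179732850 to 179777286, plus strand), the coactivator, was higher in the knockdowns. It stood at 17.2, 14.3 and 16.9 CPM in the controls and at 29.1, 24.9 and 25.6 CPM in the knockdowns, without overlap. The means were 16.1 ± 1.57 and 26.5 ± 2.24 CPM, a log2 fold change of 0.72 (SE 0.16). The coding MAML1-201 held 95.5% ± 1.17 of the gene's counts in the controls and 93.0% ± 2.01 in the knockdowns. RBPJ (ENSG00000168214.21, chromosome 4, 26163455 to 26435131, plus strand), the DNA-binding partner, stood at 14.2, 15.9 and 13.7 CPM in the controls and at 17.1, 17.5 and 17.4 CPM in the knockdowns. The groups did not overlap, but the gap was small, with a log2 fold change of 0.25 (SE 0.16). RBPJ has 48 transcripts in the files, of which only 4 averaged 5 estimated counts or more. The longest of those, RBPJ-205, held 22.1, 53.5 and 30.3 counts and then 23.0, 23.5 and 12.5, with overlap, and RBPJ-201, RBPJ-204 and RBPJ-211 each had 0 counts in at least 2 libraries. The pseudogenes RBPJP2, RBPJP5, RBPJP6 and RBPJP7 were at 0 in every library. With GC content and length offsets the value of RBPJ was 0.06.

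Of the targets, HES1 (ENSG00000114315.4, chromosome 3, 194136145 to 194138732, plus strand), the repressor most often read as a sign of Notch activity, overlapped at the level of the gene. It stood at 21.6, 20.8 and 20.2 CPM in the controls and at 16.0, 13.6 and 20.6 CPM in the knockdowns, a log2 fold change of -0.32 (SE 0.19). Only knockdown replicate 3 reached the control range. HEY1 (ENSG00000164683.18, chromosome 8, 79764010 to 79767863, minus strand), a related repressor, had 7, 2 and 10 counts in the controls against 1, 0 and 1 in the knockdowns. Per total count its ratio was 6.62 (95% exact binomial interval 1.6 to 58.6, counting error only), so its size is poorly fixed at this depth. This interval too leaves out the spread between libraries and is no test.

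The 2 transcripts of HES1 did not follow the gene total. The coding HES1-201 held 86.4, 141.0 and 126.7 estimated counts in the controls against 45.9, 33.9 and 25.2 in the knockdowns, without overlap (log2 fold change -1.46, SE 0.34). HES1-202, which keeps the intron shown above, held 85.6, 14.0 and 31.3 counts in the controls against 58.1, 40.1 and 84.8 in the knockdowns, with overlap (0.84, SE 0.68). Its share of the gene's counts was 49.8%, 9.01% and 19.8% in the controls against 55.9%, 54.2% and 77.1% in the knockdowns. Every knockdown share exceeded every control share, but control replicate 1 came close to the knockdowns. The means were 26.2% ± 21.1 and 62.4% ± 12.8, and 14.4% and 55.0% without control replicate 1 and knockdown replicate 3. Both transcripts share exon sequence, so the split of reads is the quantifier's estimate, and the deposited values do not separate spliced RNA from nuclear precursor. The transcripts also differ beyond this intron. HES1-202 has 2 exons and 1009 bases and ends at 194137284. HES1-201 has 1575 bases, and the gene ends at 194138732. The share is thus no measure of keeping this intron alone.

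Retained-intron transcripts took a larger share in other Notch genes too. The share was higher in every knockdown than in every control for NOTCH1, NOTCH3, JAG1, RBPJ and HES1, which are 5 of the 9 fitted genes, and lower in none, where 21.4% of 7425 genes with such transcripts were higher and 2.98% lower without overlap. It went from 1.79% ± 1.69 to 24.2% ± 6.94 for NOTCH1, from 0.524% ± 0.0633 to 8.56% ± 3.72 for NOTCH3, from 5.46% ± 2.43 to 15.4% ± 1.39 for JAG1 and from 2.15% ± 1.94 to 13.7% ± 4.28 for RBPJ. The counts behind these shares are few: NOTCH3 had 1.3, 2.2 and 2.2 retained-intron counts in the controls against 2.1, 3.3 and 5.7 in the knockdowns, and NOTCH1 had 0, 5.1 and 7.7 and then 11.4, 9.8 and 12.0. Scaled to each library's total count and given as CPM of that total, NOTCH3 retained-intron counts were 0.15, 0.283 and 0.284 in the controls against 0.333, 0.636 and 1.06 in the knockdowns. On this scale they were higher in every knockdown, while the coding counts were lower. For knockdown replicate 1 this rests on 2.1 counts and on the scaling, as control replicates 2 and 3 held 2.2 counts each. Over all 7425 genes the pooled share was 14.6% to 15.5% in the controls and 20.2% to 20.9% in the knockdowns. The median difference was 8.04 percentage points over the 9 Notch genes and 2.26 over all such genes.

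**Figure D3:**
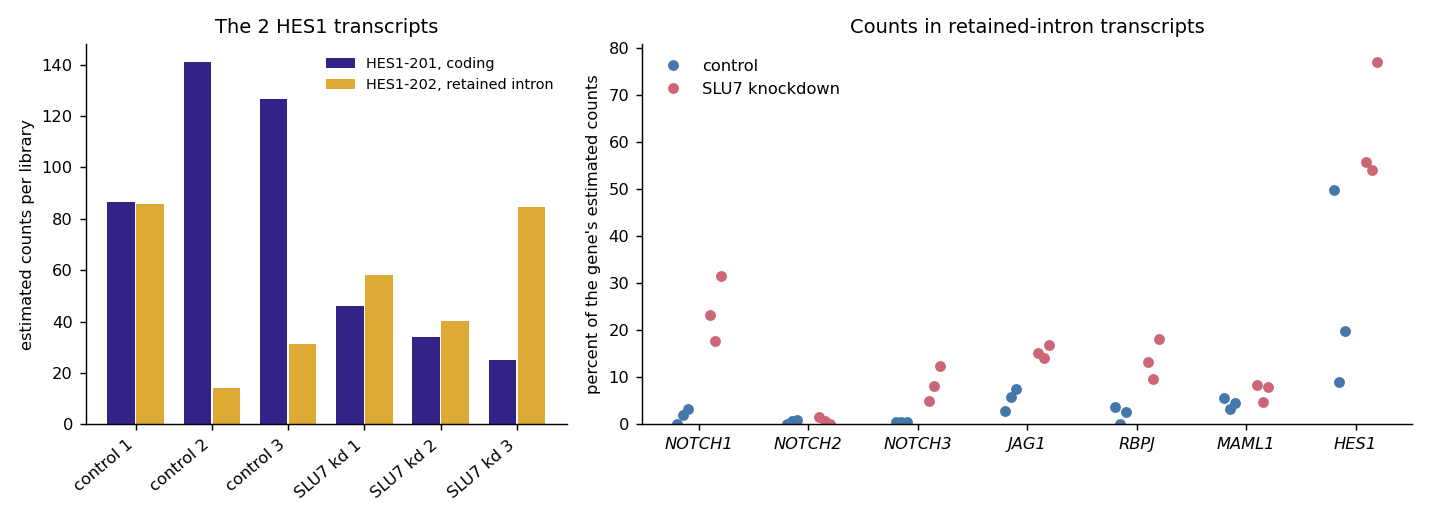
Left, estimated counts per library of the coding and the retained-intron transcript of HES1. Right, the percent of each gene's estimated counts on retained-intron transcripts, 3 libraries per group, for 7 Notch genes. HES1 stands at 54.2% to 77.1% in the knockdowns and 9.01% to 49.8% in the controls, and NOTCH2 stays below 2% in every library.

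The size of several differences depended on the scale. NOTCH1, NOTCH3 and JAG2 have GC-rich transcripts (65.0%, 63.5% and 63.9% GC), and a smooth of GC content and length over all genes alone gave log2 fold changes of -0.73, -0.57 and -0.65 for them. With offsets from that smooth, NOTCH3 stood at -2.06, JAG2 at -2.31, NOTCH2 at -1.05, NOTCH1 at -0.92 and MAML1 at 0.92, and the 5 genes called were the same, where 10.8% of all genes were called. With offsets for the average length of each gene's transcripts, NOTCH3 was -2.23, MAML1 1.26, NOTCH1 -0.68, NOTCH2 -0.63 and JAG1 -0.02. JAG2 was -3.37 (SE 0.96), NOTCH4 -1.47 (SE 0.40) and RBPJ 0.85 (SE 0.30), farther from 0 than on counts alone, and only NOTCH3 and MAML1 were called, where 5.65% of all genes were.

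On log2(TPM + 1), which understates changes of low genes, the median of all genes moved by 0.352 and 18.3% of all genes were called. NOTCH3 was lower by limma's estimate (-1.33, and -1.68 relative to that median). MAML1 (1.40, relative 1.05) and RBPJ (1.21, relative 0.86) were higher, and these 3 were the genes called. NOTCH1 (-0.04, relative -0.39) and NOTCH2 (-0.03, relative -0.38) lay near 0, and JAG1 (0.52, relative 0.17) and HES1 (0.40, relative 0.05) changed sign. NOTCH4 (-0.29, relative -0.64) and JAG2 (-0.37, relative -0.72) were not called. Thus NOTCH3 was called lower and MAML1 higher on all 4 scales. The sign of JAG1 and HES1 turned on the scale, and the sizes of NOTCH1, NOTCH2, NOTCH4, JAG2 and RBPJ moved with it. TPM carries the shift of counts between long and short transcripts that counts do not.

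**Figure D4:**
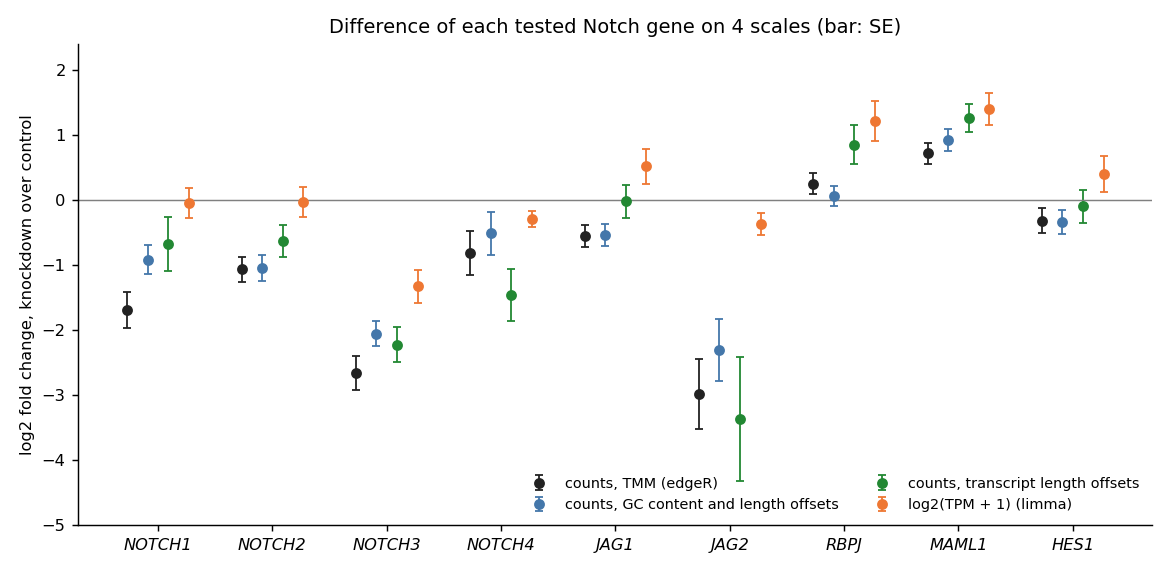
Log2 fold change, knockdown over control, of the 9 fitted Notch genes on 4 scales, with SE bars: counts, counts with GC content and length offsets, counts with transcript length offsets, and log2(TPM + 1). NOTCH3 lies below 0 and MAML1 above 0 on each scale, and JAG1 and HES1 lie on both sides of it.

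In order of TPM, the controls held JAG1 (12.0), NOTCH2 (10.2), NOTCH3 (7.85), HES1 (7.48), RBPJ (4.0), MAML1 (1.9), NOTCH1 (1.25), NOTCH4 (0.668), JAG2 (0.497) and HEY1 (0.232) on average. Neighbours from JAG1 to HES1 overlapped in their libraries, as did MAML1 with NOTCH1, NOTCH4 with JAG2, and JAG2 with HEY1. NOTCH4 lay just below every NOTCH1 value. In the knockdowns the order was JAG1 (17.3), RBPJ (10.5), HES1 (10.2), NOTCH2 (9.91), MAML1 (6.63), NOTCH3 (2.49), NOTCH1 (1.22), NOTCH4 (0.364), JAG2 (0.15) and HEY1 (0.0702). RBPJ, HES1 and NOTCH2 overlapped there, and NOTCH3 lay below every MAML1 value, which was the reverse of the controls. These values add up all transcripts of a gene, retained-intron ones included. The coding HES1-201 was lower, at 3.45, 4.8 and 5.53 TPM and then 3.1, 2.62 and 2.03. HES1-202 held 6.49, 5.13 and 11.4 TPM in the knockdowns. The coding MAML1-201 was higher, at 1.32, 0.907 and 1.42 TPM and then 2.99, 2.53 and 2.6. RBPJ-205 held only 0.424, 0.494 and 0.273 TPM in the knockdowns.

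The other genes of the pathway numbered 85 on 9 lists, of which 64 were fitted. By edgeR's test 10 were lower, among them HES4, which passed the count filter through the controls only, and 1 higher. This is 17.2% of the 64 against 13.9% of all genes, with a median log2 fold change of -0.20 against -0.007. Leaving out knockdown replicate 2 left 0 calls (15 at an unadjusted p under 0.05), knockdown replicate 1 or control replicate 2 left 1, control replicate 3 left 2 and knockdown replicate 3 left 6, while 22 passed without control replicate 1. All 11 genes passed again without control replicate 1 and knockdown replicate 3. That pair was chosen after seeing the data, and 29.8% of all genes passed without it. With GC content and length offsets 5 of the 11 passed (APH1B, SPEN, HES4, SOX9 and BHLHE40), with transcript length offsets 3 (MIB2, HES4 and BHLHE40), and on log2(TPM + 1) 2 (SPEN and HES4).

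On the ligand side, 2 of 3 fitted ligands were called lower. The third, EGFL7, had a log2 fold change of -1.36 (SE 0.52) with overlapping groups and did not pass (adjusted p = 0.109). DLL4, a Delta-like ligand known from vessel sprouting, fell from 15.5 ± 2.19 to 7.97 ± 1.24 CPM, a log2 fold change of -0.96 (SE 0.21, adjusted p = 0.0211). DLK2, a noncanonical ligand, fell from 13.6 ± 1.37 to 6.14 ± 2.21 CPM (-1.15, SE 0.26, adjusted p = 0.0259). Of 5 fitted genes for ligand endocytosis, which pulls on the bound receptor, the ubiquitin ligase MIB2 fell (-1.06, SE 0.24, adjusted p = 0.0245). With GC content and length offsets DLL4, DLK2 and MIB2 were at -0.57, -0.78 and -0.34 and none of the 3 passed.

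Among enzymes that act on the receptors, 0 of the 5 fitted glycosylation genes passed with edgeR or DESeq2, also 0 at an unadjusted p under 0.05. The 2 most abundant were POFUT1, which adds fucose, at -0.02 (SE 0.15) and EOGT at -0.08 (SE 0.19). The list ranged from RFNG at -1.11 (SE 0.50) to MFNG at 0.78 (SE 0.68), both of few counts. Of 9 cleavage genes 2 were called lower. FURIN, the protease of the first cut, fell from 476 ± 113 to 241 ± 17.9 CPM (-0.98, SE 0.21, adjusted p = 0.0209, and -0.46 with adjusted p = 0.106 under GC content and length offsets). APH1B, a gamma-secretase subunit, fell from 7.56 ± 2.42 to 3.08 ± 1.04 CPM (-1.29, SE 0.35, adjusted p = 0.0424). Of the 11 fitted genes of trafficking and turnover 0 passed with edgeR or DESeq2 (2 and 1 at an unadjusted p under 0.05). The 2 most abundant were the ubiquitin ligases ITCH at -0.01 (SE 0.15) and NEDD4 at -0.17 (SE 0.15). The list ranged from DTX1 at -1.11 (SE 0.45) to FBXW7 at 0.24 (SE 0.31). DTX4 was lower without overlap, at 16.8 to 27.2 and then 12.2 to 13.5 CPM (-0.70, SE 0.21, adjusted p = 0.0594).

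In the nucleus, MAML3 fell from 26.5 ± 2.78 to 16.1 ± 3.2 CPM (-0.72, SE 0.19, adjusted p = 0.0383), as 1 of 6 fitted coactivators, while its relative MAML1 was higher. On transcript length offsets MAML3 stood at 0.04. Of 15 fitted genes on the corepressor list, SPEN, which binds RBPJ when no receptor domain is there, rose from 118 ± 21.5 to 199 ± 20.2 CPM (0.76, SE 0.18, adjusted p = 0.0293). TLE5, a short Groucho-family protein, fell from 51.2 ± 17.5 to 26.5 ± 2.36 CPM (-0.95, SE 0.25, adjusted p = 0.0383).

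Of the other HES and HEY genes and NRARP, 5 of 9 were fitted and HES4 was called lower. It had 16, 34 and 24 counts in the controls against 4, 1 and 2 in the knockdowns. HES4 passed the filter through the controls only, as JAG2 did, so its call is no support and its values are a description. Per total count its ratio was 7.37 (95% exact binomial interval 3.4 to 19.0, counting error only). The fitted log2 fold change was -2.94 (SE 0.54), and -2.0 with GC content and length offsets, on transcripts of 74.0% GC. Of 5 fitted genes on the list of other targets, 2 were called lower. SOX9, a transcription factor of bile duct and progenitor cells, fell from 30.4 ± 4.37 to 17.2 ± 3.3 CPM (-0.82, SE 0.19, adjusted p = 0.0274). BHLHE40, a repressor of the clock and hypoxia responses, fell from 76.4 ± 7.71 to 37.2 ± 5.13 CPM (-1.04, SE 0.16, adjusted p = 0.00988). Both kept nearly the same values with GC content and length offsets, -0.78 and -1.01. Of 41 pathway genes in the transcript usage test, 0 passed with edgeR diffSpliceDGE, where 2.58% of 8866 genes did, 3 had an unadjusted p under 0.05, and 1 (NCOR1) passed with limma diffSplice.

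**Figure D5:**
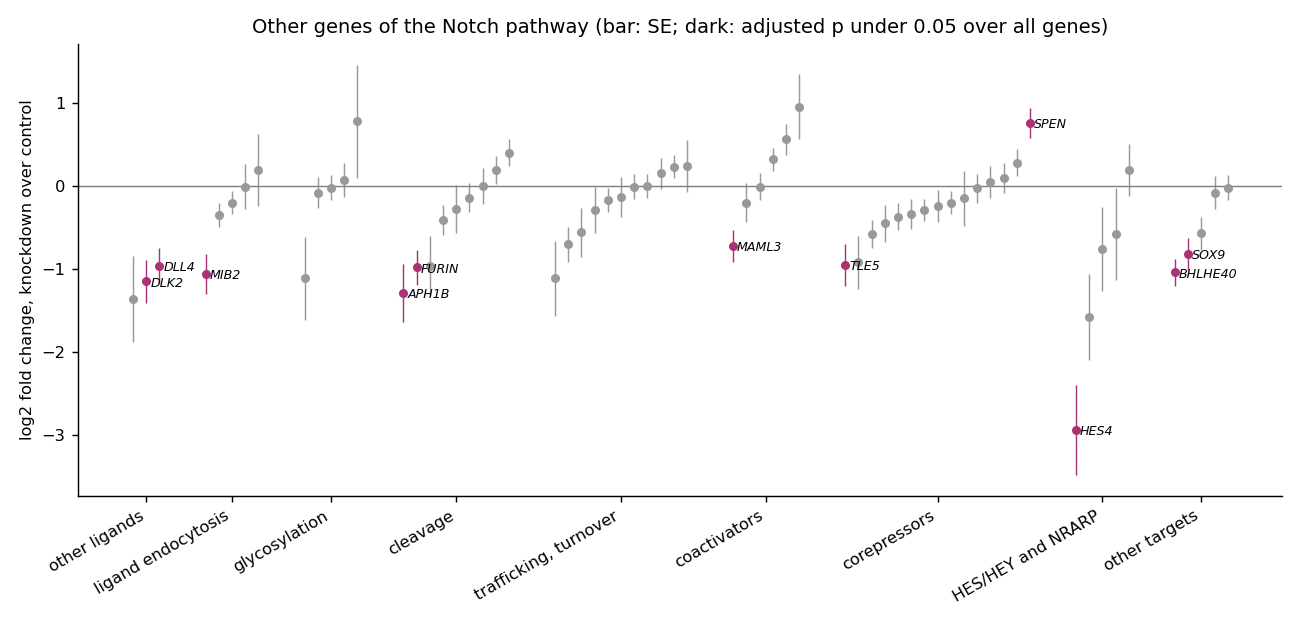
Log2 fold change with SE of the 64 fitted pathway genes that are not among the 10, grouped by role. The 11 dark, named points passed the adjusted threshold over all genes, 10 below 0 and SPEN above it.

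The cells kept the markers of the labelled line, with qualifications. All 10 hepatocyte markers were fitted, with sums of 18800 to 29500 CPM in the controls and 17500 to 23700 in the knockdowns. TTR was called higher and none lower. TTR was low, at 1.21 to 1.63 CPM in the controls and 3.08 to 5.23 in the knockdowns. APOB and SERPINA1 carried most of these sums, which can hide changes of the others. APOB (12800 to 13800 CPM in the controls, 11700 to 11900 in the knockdowns), TF, HNF4A (165 to 226, then 124 to 143) and CEBPA were lower without overlap. TTR and ALB were higher without overlap. Among 10 biliary markers, with sums of 587 to 663 and 524 to 608 CPM, KRT7, KRT19, SPP1 and CFTR lay below 1 CPM in every library and SOX9 fell. NOTCH3 and NOTCH4 are also expressed by mural and endothelial cells. KDR and TEK of 8 endothelial markers and COL3A1 and LUM of 9 mural and fibroblast markers were at 0 in every library. Others of these lists were present. PECAM1 stood at 3.07 to 3.64 CPM in the controls and 2.95 to 4.86 in the knockdowns. TIE1 stood at 0.511 to 0.67 and then 0.923 to 2.06 CPM, higher without overlap on few counts. PDGFRB stood at 13.1 to 22.1 and then 8.15 to 11.4 CPM, RGS5 at 3.48 to 6.53 and then 3.74 to 7.84. The endothelial sum was 4.52 to 5.24 CPM in the controls and 5.23 to 7.85 in the knockdowns, the mural and fibroblast sum 22.0 to 29.6 and 17.4 to 20.3, with PDGFRB lower. Sums of 7 immune markers were 51.2 to 68.0 and 49.9 to 57.1 CPM, carried mostly by LYZ and CD68. PTPRC was called higher, at 0.377 to 0.511 CPM in the controls and 1.49 to 2.03 in the knockdowns. It passed the count filter through the knockdowns only, so its call is no support and its values are a description. The part of these differences in the Notch values was not tested.

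The genes whose pattern over the 6 libraries lay closest to NOTCH3 were IGFBP1, BHLHA15, ZFP36, PLPPR3 and AGRN. Closeness was the root mean square difference in log2 CPM after centring, over 9927 coding genes, and it was 0.18 for IGFBP1, 0.36 for BHLHA15 and ZFP36, 0.38 for PLPPR3 and 0.40 for AGRN. IGFBP1, a secreted binding protein of insulin-like growth factors, stood at 1130, 2020 and 1280 CPM in the controls against 254, 280 and 346 in the knockdowns. All 5 share the 6 libraries and their depth with NOTCH3, and the likeness was chosen on the same values.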

How the data were processed

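RNA of PLC/PRF/5 cells was extracted with TRIzol and made into polyA libraries with a ScriptSeq kit, per the labels. FastQC 0.11.8, Trimmomatic 0.38, kallisto 0.46.1, sleuth 0.30.0 and GRCh38 are named in the submitters' processing notes. The deposited files give an estimated count and a TPM value per transcript, computed by the authors with software that divides shared reads among transcripts, per the file headers. The sources used here do not give the annotation release or the strand setting, so overlapping antisense reads cannot be told apart.

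Estimated counts of 234485 transcripts were rounded and summed to 60607 genes, and 17109 passed filterByExpr. Genes were fitted with edgeR 4.0.16 in R 4.3.3 (TMM, quasi-likelihood test over all 6 libraries, Benjamini-Hochberg at 0.05), and transcript usage with diffSpliceDGE. CPM used the TMM-scaled library sizes, and log2 fold changes are knockdown over control. Depth was 5191452 to 8693977 estimated counts per library. The main gene fit and the main usage fit were run on simulated counts with the same spread for every gene or transcript. Those counts held no library differences beyond depth, unlike these data, and the alternative fits were not simulated. Coordinates come from GENCODE 29 and promoters from RefSeq.

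The 10 genes and all lists were chosen with earlier results of these data known. Named were the 10 genes, each list's genes past the test (or the 2 most abundant), transcripts averaging at least 5 counts, and the 5 genes closest to NOTCH3 among coding genes of at least 5 CPM. Some other genes of a list are named to show its range. SHARPIN stood on the corepressor list although it is not known as one. Alternatives were RLE factors, no filter, a stricter filter, the replicate number as a block, length offsets, GC content and length offsets (mgcv 1.9.3), DESeq2 1.42.0, limma 3.58.1 on log2(TPM + 1) and log2(TPM + 0.1), each library left out and, chosen after seeing the data, control replicate 1 and knockdown replicate 3 left out together.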

Additional observations from a re-analysis of the deposited data

How the results depend on the processing

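RLE size factors, a stricter filter and DESeq2 left the counts of called genes within 1.5 times. Against 2371 of all genes, 11 pathway genes and 5 of the 10 Notch genes called, transcript length offsets gave 966, 4 and 2, and control replicate 1 and knockdown replicate 3 left out together gave 5248 and 24 for the first 2. Pathway calls were 17 with no filter, 7 on log2(TPM + 1) and 6 on log2(TPM + 0.1), and Notch genes called were 3 on both TPM scales. Calls on the higher side made up 42.8% of all genes called, 48.3% with GC content and length offsets, 45.8% with length offsets and 95.2% on log2(TPM + 1). Leaving out 1 library gave 0 to 4457 calls over all genes, 0 to 22 pathway genes and 0 to 6 Notch genes. The replicate number is only a number here: deviations of same-numbered libraries correlated at -0.41, 0.11 and -0.37, and with it as a block 0 of all genes, 0 pathway genes (18 at an unadjusted p under 0.05) and 0 Notch genes were called. Changed transcript usage, 229 genes, was 412 with the gene-level F test, 86 with the block, 796 without control replicate 1 and knockdown replicate 3, and 147 to 735 with 1 library left out. Of pathway genes, 0 had changed usage, and 1 with limma diffSplice, the stricter filter or that pair left out, and 1 to 2 with 1 library left out (POFUT1 in each). The NOTCH3 share differed by -12.8 points by counts. Genes near 0 changed sign: EOGT to 0.42 and 0.47 on the TPM scales, NEDD4 to 0.45 and 0.46, ITCH to 0.73 and 0.75, POFUT1 to 0.69 and 0.71, and MAML3 to 0.42 and 0.54. With length offsets ITCH was 0.20, POFUT1 0.13 and MAML3 0.04. ITCH was 0.00 with the stricter filter and 0.06 without the pair. With 1 library left out, EOGT ranged from -0.24 to 0.02, ITCH from -0.10 to 0.06 and POFUT1 from -0.09 to 0.01. The cause was not tested. Depth limits HEY1, JAG2 and NOTCH4, with at most 40 counts in any library.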
